A study of Mus musculus with 16 samples.

Results

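The genes followed here are known targets of the tumour suppressor p53, or are induced alongside them under stress: Gdf15, Cdkn1a, Mdm2, Ccng1, Psrc1, Eda2r, Phlda3, Zmat3, Bax and Trp53inp1. The list was given by gene symbol, with 10 symbols in it. Where a symbol had several probes, the brightest on average stood for it. Of these, 9 had a named probe, so 9 of the 20863 genes tested are described here, and Bax was not analysed here. No gene was left out for a low value.

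The lungs came whole from C57BL/6 mice aged 9 to 12 weeks, and their messenger RNA was read on 1-colour Agilent arrays. Every animal received a locked nucleic acid (LNA) oligonucleotide into the trachea, 5 mg/kg each time: 4 days and 2 days ahead of the treatment, and again 4 days after it. The oligonucleotide was either LNA-miR-199a-5p, an inhibitor of the microRNA miR-199a-5p, or LNA-control. How far it silenced the microRNA in these lungs was not examined here. The treatment was bleomycin at 1 unit/kg or its vehicle PBS. There were thus 4 groups: PBS with LNA-control (3 arrays), PBS with LNA-miR-199a-5p (3 arrays), bleomycin with LNA-control (5 arrays) and bleomycin with LNA-miR-199a-5p (5 arrays). All 4 groups carried an LNA, so no lung was free of oligonucleotide. The labels give neither the sex nor the time between treatment and collection. By its title, the series asks how bleomycin-induced fibrosis changes when miR-199a-5p is silenced. The labels number the replicates but do not say that each came from its own animal, so p-values measure the spread between these samples, which may be technical.

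Bleomycin is a drug that breaks DNA strands. Broken DNA activates kinases that stabilise p53, a transcription factor, which then switches on genes that stop the cell cycle, repair DNA or prepare the cell for death, together with genes such as Mdm2 that switch p53 off again. In injured lung, p53 and its targets are best known from alveolar epithelial cells on the way from type 2 to type 1 cells and from senescent cells. GDF15 is a secreted stress hormone of the TGF-beta superfamily that p53 and the integrated stress response both induce, and macrophages are another known source of it.

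The oligonucleotide under study is directed against the mature microRNA, whose seed (bases 2 to 8) is shown in capitals as RefSeq gives it (build GRCm38.p6). It is encoded in the mouse at chr1:162217844-162217866 on the plus strand and at chr9:21496537-21496559 on the minus strand.
miR-199a-5p: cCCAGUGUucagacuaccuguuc

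Promoter windows from RefSeq (same build), 250 bases before to 50 bases after a transcript start, matched 7 of the 9 measured genes in 10 windows. They were searched on both strands for the p53 half-site consensus, a motif of 10 bases, and for a pair of CATG cores with 6 bases between them, the spacing that adjoining half-sites give. The half-site consensus was in 3 of the 10 windows, each of a different gene (Cdkn1a, Ccng1 and Mdm2), against 8.36% of 32851 windows of all genes. The CATG pair was in 1 of the 10, that of Cdkn1a, against 0.71% of all windows, and there it overlapped with one of the 2 half-site matches. The 3 stretches are shown because these are the genes whose window held a match. Capitals mark the CATG pair with 3 bases on either side for Cdkn1a, and the half-site for Ccng1 and Mdm2.
Cdkn1a, chr17:29090893-29090975, plus strand: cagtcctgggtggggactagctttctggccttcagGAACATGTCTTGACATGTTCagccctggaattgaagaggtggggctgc
Ccng1, chr11:40755427-40755506, minus strand: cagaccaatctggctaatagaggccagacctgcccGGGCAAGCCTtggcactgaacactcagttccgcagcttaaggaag
Mdm2, chr10:117710900-117710979, minus strand: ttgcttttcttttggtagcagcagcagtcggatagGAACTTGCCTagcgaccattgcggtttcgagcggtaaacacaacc
These matches describe letters in a window. Binding of p53 was not measured in these lungs.

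Values are log2 intensities, on which a difference of 1 is a doubling, and they ran from 4.61 to 18.32 on the arrays. Differences are given ± standard error from limma fitted to all genes, and a gene was called at an adjusted p (Benjamini-Hochberg, over all 20863 genes) under 0.05. RNA integrity numbers lay between 7 and 10 and averaged 8.33 in each PBS group, against 8.2 in the LNA-control and 9 in the inhibitor lungs after bleomycin. The surfactant gene Sftpc, which defines lung tissue, read 18.11 to 18.32, at or near the highest value of the table on every array, so this check of the tissue cannot show differences between arrays. Some arrays carried transcripts of neighbouring tissues. Rag1, a thymocyte gene, was at most 6.10 except in 2 bleomycin lungs with LNA-control, replicates 1 and 4, where it read 10.03 and 10.88. The brown fat gene Ucp1 read 5.57 and 5.56 on replicate 3 of either PBS group and 7.65 to 13.86 on the others. In the second of these lungs, the one with the inhibitor, the squamous keratin Krt13 read 5.59, against 11.38 to 15.73 elsewhere. Calls of the 9 genes that were lost without the thymocyte-rich arrays or without replicate 3 of both PBS groups are given beside them.

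Gdf15 (chromosome 8, 70629393 to 70632470) had the widest range over the arrays of all 9 genes, from 7.92 to 11.21. With PBS and LNA-control it read 8.03, 7.92 and 7.99, and with PBS and LNA-miR-199a-5p 8.74, 8.95 and 8.93. After bleomycin with LNA-control it read 10.84, 10.59, 10.63, 11.21 and 10.95. After bleomycin with LNA-miR-199a-5p it read 8.78, 9.01, 8.77, 8.98 and 9.07. All 5 bleomycin arrays with LNA-control lay above every other array, and the arrays with LNA-miR-199a-5p overlapped whether the lung had received bleomycin or PBS. The 3 arrays of PBS with LNA-control lay below all the rest.

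Cdkn1a (chromosome 17, 29090979 to 29100722) encodes p21, an inhibitor of cyclin-dependent kinases that halts the cell cycle. It read 10.37, 10.37 and 10.35 with PBS and LNA-control, and 10.90, 10.86 and 10.97 with PBS and LNA-miR-199a-5p. Bleomycin lungs read 11.52, 12.48, 12.30, 12.68 and 12.32 with LNA-control, and 11.17, 11.36, 11.20, 12.03 and 11.67 with LNA-miR-199a-5p. The last 2 groups overlapped, through replicate 1 of the first and replicates 4 and 5 of the second. That low reading belonged to 1 probe. On the same array the 9 other probes of the same transcript read 12.24 to 12.49, whereas on the other 4 arrays of the group the tested probe was near or above the top of their range. Over these 9 probes the 2 bleomycin groups did not overlap, though narrowly. Their lowest reading with LNA-control was 11.977 and their highest with the inhibitor 11.965. On the median of all probes, bleomycin with LNA-control differed from PBS by 2.10 ± 0.15 and the inhibitor from LNA-control in bleomycin lungs by -0.98 ± 0.13, against 1.89 ± 0.22 and -0.77 ± 0.19 on the tested probe. Cdkn1a also had a dim probe for a second RefSeq transcript, which read 1.29 ± 0.11 higher after bleomycin with LNA-control and 0.97 ± 0.09 lower with the inhibitor in bleomycin lungs, with limma adjusted p of 5.64e-07 and 4.14e-06 over all 31465 named probes.

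**Figure D1:**
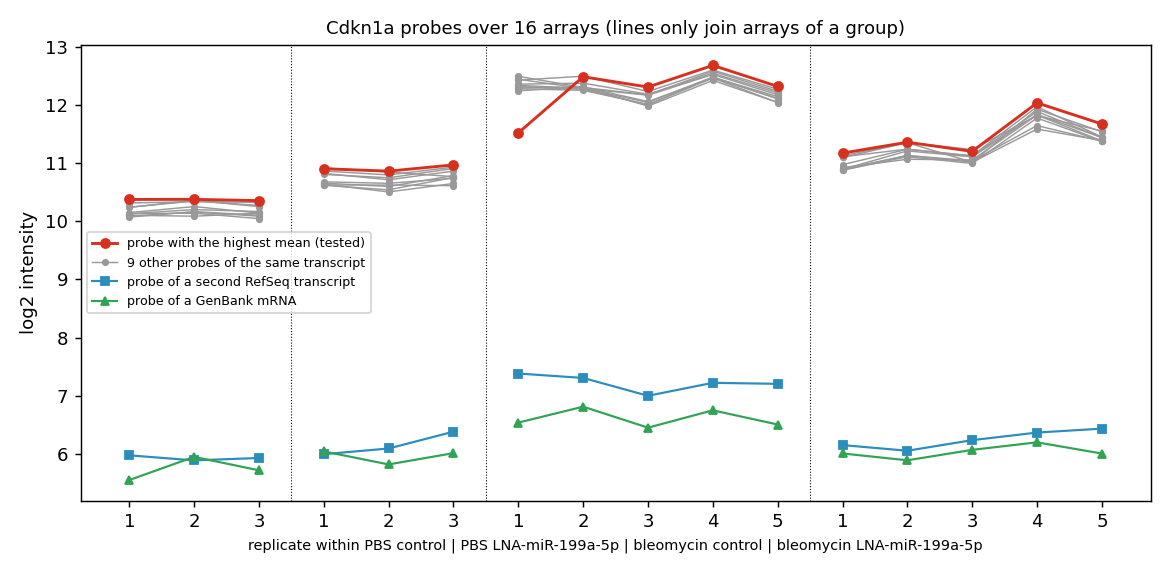
Log2 intensity (vertical axis) of the 12 Cdkn1a probes on the 16 arrays (horizontal axis, numbered by replicate within each group); lines only join arrays of a group. The tested probe (red) reads 11.52 on replicate 1 of bleomycin with LNA-control, where the 9 other probes of that transcript (grey) read 12.24 to 12.49, and the blue and green probes of other transcripts lie far lower on every array.

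Mdm2 and Ccng1 act back on p53. Mdm2 (chromosome 10, 117688875 to 117710758) encodes the ubiquitin ligase that marks p53 for destruction. It read 12.82, 12.89 and 12.98 with PBS and LNA-control, and 12.42, 12.95 and 13.10 with PBS and LNA-miR-199a-5p. After bleomycin it read 12.99, 13.04, 13.09, 13.15 and 13.09 with LNA-control, and 12.79, 12.73, 12.67, 12.82 and 12.86 with LNA-miR-199a-5p. Mdm2 thus moved within a narrow band, and the 5 bleomycin arrays with LNA-control stood just above the PBS controls. Ccng1 (chromosome 11, 40748552 to 40755309) encodes cyclin G1, which works with a phosphatase that regulates Mdm2. It read 10.93, 10.73 and 10.80 with PBS and LNA-control, and 11.21, 11.09 and 10.97 with PBS and LNA-miR-199a-5p. Bleomycin lungs read 12.30, 12.18, 12.05, 12.24 and 12.21 with LNA-control, and 11.02, 10.99, 11.11, 10.69 and 10.75 with LNA-miR-199a-5p. The 5 bleomycin arrays with LNA-control stood far above the rest for Ccng1, and the bleomycin arrays with the inhibitor overlapped with both PBS groups.

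Psrc1 (chromosome 3, 108383804 to 108388231) encodes a microtubule-binding protein of the mitotic spindle that p53 is known to induce. It read 6.34, 6.14 and 6.01 with PBS and LNA-control, and 6.54, 6.52 and 6.88 with PBS and LNA-miR-199a-5p. After bleomycin it read 8.85, 8.53, 8.40, 8.91 and 8.83 with LNA-control, and 6.84, 6.54, 6.60, 6.53 and 6.63 with LNA-miR-199a-5p. As for Gdf15, the 5 bleomycin arrays with LNA-control were the highest, the 3 PBS controls the lowest, and the inhibitor groups lay together in between. Zmat3 (chromosome 3, 32334792 to 32365665) encodes an RNA-binding zinc finger protein that acts on splicing and RNA stability. It read 9.62, 9.63 and 9.55 with PBS and LNA-control, and 9.67, 9.70 and 9.94 with PBS and LNA-miR-199a-5p. Bleomycin lungs read 10.56, 10.40, 10.48, 10.68 and 10.62 with LNA-control, and 9.76, 9.70, 9.63, 9.85 and 9.61 with LNA-miR-199a-5p. Here too the bleomycin arrays with LNA-control stood apart, and those with the inhibitor overlapped with both PBS groups.

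Phlda3, Eda2r and Trp53inp1 are linked to survival and death. Phlda3 (chromosome 1, 135766085 to 135769134) encodes a pleckstrin homology protein that restrains the survival kinase Akt. It read 12.89, 12.73 and 12.61 with PBS and LNA-control, and 13.03, 12.96 and 12.96 with PBS and LNA-miR-199a-5p. After bleomycin it read 14.03, 14.01, 13.88, 14.08 and 13.99 with LNA-control, and 13.10, 13.26, 13.17, 13.43 and 13.53 with LNA-miR-199a-5p. Its 4 groups did not overlap at all. Trp53inp1 (chromosome 4, 11156441 to 11174379) encodes a stress protein that promotes p53 activity and autophagy. It read 11.46, 11.45 and 11.68 with PBS and LNA-control, and 11.57, 11.64 and 11.44 with PBS and LNA-miR-199a-5p. Bleomycin lungs read 12.13, 11.90, 11.99, 12.25 and 12.01 with LNA-control, and 11.42, 11.45, 11.21, 11.08 and 11.16 with LNA-miR-199a-5p. Its 5 bleomycin arrays with the inhibitor were all below the PBS controls, a position no other member took. The margin was narrow, with 11.448 as the highest of the 5 and 11.454 as the lowest control. Eda2r (chromosome X, 97333837 to 97377234) encodes a receptor of the tumour necrosis factor family for the A2 form of ectodysplasin. It read 5.17 to 5.28 with PBS and LNA-control, 5.25 to 5.43 with PBS and LNA-miR-199a-5p, 5.37 to 5.74 after bleomycin with LNA-control and 5.15 to 5.27 after bleomycin with LNA-miR-199a-5p. Its mean lay at percentile 15.3 of all genes, close to the bottom of the scale.

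**Figure D2:**
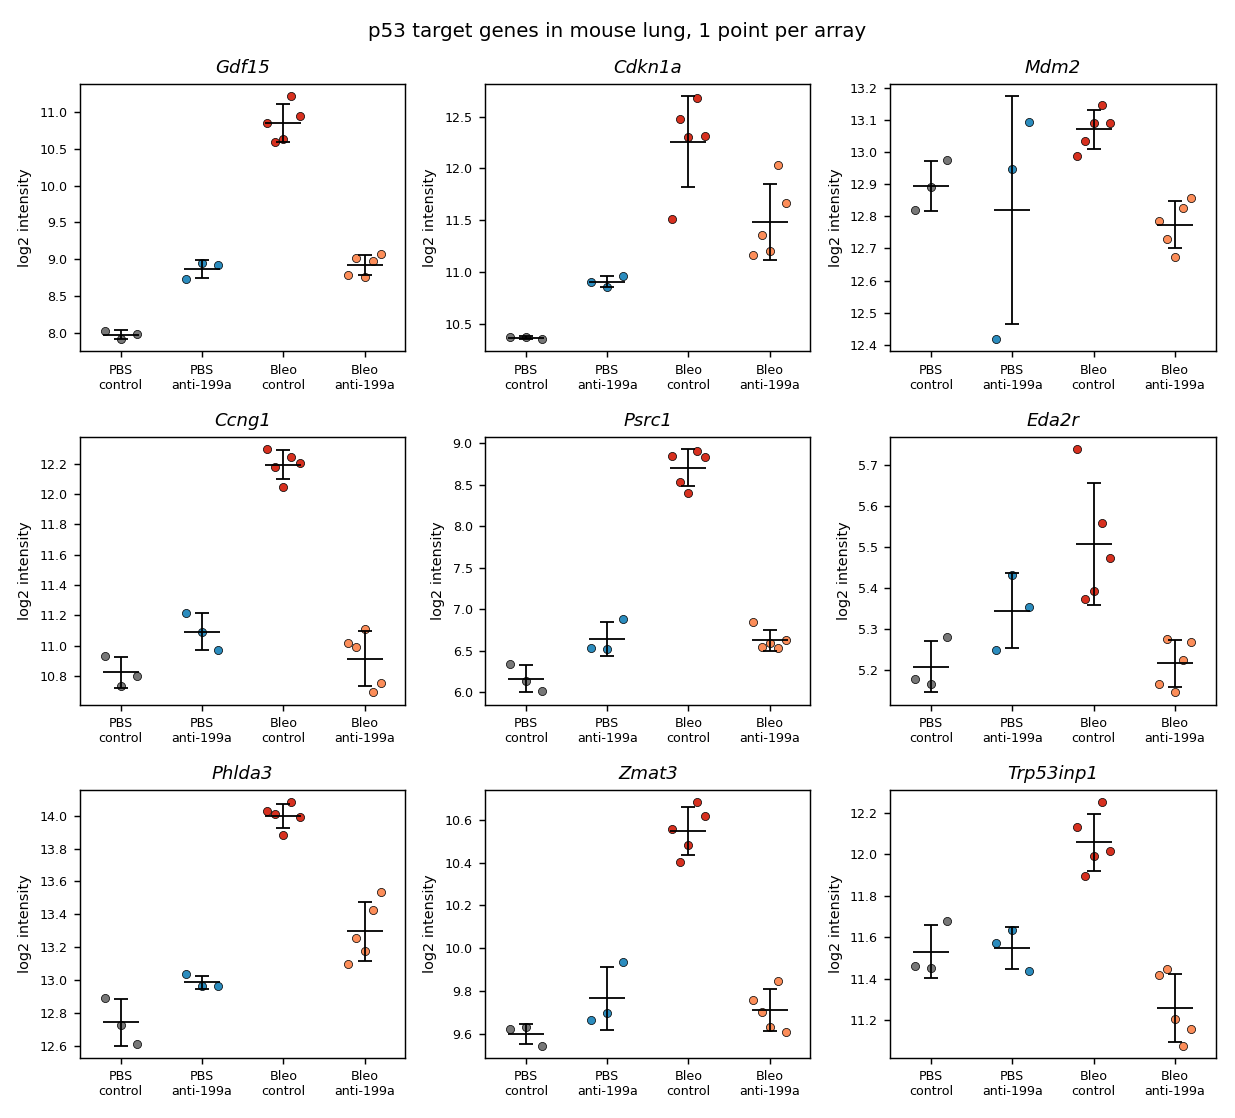
Log2 intensity (vertical axis, a separate range for each panel) of the 9 genes in the 4 groups (horizontal axis), 1 point per array, with the group mean as a long bar and 1 SD on either side as the short bars. For 8 of the 9 genes the lowest bleomycin array with LNA-control lies above every bleomycin array with LNA-miR-199a-5p (anti-199a), with Cdkn1a, on its tested probe, as the exception.

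Bleomycin against PBS in lungs given LNA-control asks what injury did without the inhibitor. Of the 9 genes, 8 rose past the threshold and none fell, where 9.6% of all genes rose, 7.9% fell and 17.5% changed either way. For 9 of 9 genes every bleomycin array lay above every PBS array, as it did for 13.9% of all genes. Gdf15 rose by 2.86 ± 0.12 (7.28-fold), Psrc1 by 2.54 ± 0.13 (5.82-fold) and Cdkn1a by 1.89 ± 0.22 (3.71-fold), with limma adjusted p of 4.74e-10, 3.13e-09 and 1.92e-05. Ccng1 rose by 1.37 ± 0.10, Phlda3 by 1.26 ± 0.10 and Zmat3 by 0.95 ± 0.08, all with adjusted p of at most 1.60e-06. Trp53inp1 rose by 0.53 ± 0.10 (adjusted p 0.00176) and Eda2r by 0.30 ± 0.08 (adjusted p 0.0185). Mdm2 differed by 0.18 ± 0.11, which did not pass the test (adjusted p 0.336, 95% confidence interval -0.06 to 0.42). Without the thymocyte-rich replicates 1 and 4, 7 of 9 were called, and Eda2r, at 0.21, was not (adjusted p 0.113). The share of all genes called either way also fell, to 14.2% without replicate 1 alone and 14.9% without replicate 4 alone. Eda2r also lost its call without replicate 1 or replicate 2 of the PBS controls.

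The inhibitor against LNA-control in bleomycin lungs asks how the injured lung differed when the inhibitor was given. All 9 genes were lower with the inhibitor, where 11.4% of all genes were lower and 24.9% changed either way. For 8 of the 9 the arrays did not overlap, against 6.46% of all genes. Psrc1 fell by 2.08 ± 0.11 (4.22-fold lower) and Gdf15 by 1.92 ± 0.11 (3.79-fold lower), with limma adjusted p of 9.56e-09 and 1.06e-08. Ccng1 fell by 1.28 ± 0.09, Zmat3 by 0.84 ± 0.07, Trp53inp1 by 0.80 ± 0.09 and Phlda3 by 0.70 ± 0.08, all with adjusted p of at most 3.42e-05. Cdkn1a fell by 0.77 ± 0.19 (adjusted p 0.00688), Eda2r by 0.29 ± 0.07 (adjusted p 0.00783) and Mdm2 by 0.30 ± 0.10 (adjusted p 0.0355). The call of Mdm2 was lost in 7 of the 16 fits that left out 1 array, replicates 3, 4 and 5 with LNA-control and replicates 1 to 4 with the inhibitor, with adjusted p up to 0.0807. Without the thymocyte-rich arrays 7 of 9 were called, and Mdm2 (-0.30, adjusted p 0.121) and Eda2r (-0.20, adjusted p 0.0814) were not. The share of all genes called either way also fell, to 19.1% without the first of these arrays alone and 18.1% without the second alone. With brown fat and heart transcript levels as covariates 5 were called (Gdf15, Psrc1, Ccng1, Zmat3 and Phlda3), out of 1.05% of all genes called either way, and Cdkn1a, at -1.19, was not (adjusted p 0.128). Its standard error rose from 0.19 to 0.35. The heart marker level itself did not overlap between these groups, at 12.04 to 12.66 with LNA-control and 12.72 to 13.54 with the inhibitor. This fit therefore only partly separates tissue level from treatment.

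In bulk tissue, fewer cells of a type and less RNA per cell cannot be told apart, and the levels of several cell types differed between the same groups. Of 10 macrophage markers, 9 were higher after bleomycin with LNA-control, and in bleomycin lungs the inhibitor group was lower for 9 and higher for 1 (Marco). Their mean level was 10.71 to 10.80 with PBS and LNA-control, 10.93 to 11.07 with PBS and the inhibitor, 12.30 to 12.76 after bleomycin with LNA-control and 11.25 to 11.32 after bleomycin with the inhibitor. The group means of Gdf15 ranked in the same order, as did those of the 9 p53 target genes together. Those of the transitional epithelium markers and cell cycle genes described below did so too. Of 7 markers of transitional alveolar epithelium, 6 were higher after bleomycin with LNA-control and 5 were lower with the inhibitor in bleomycin lungs. The mean of these 7 was 11.56 to 11.71, 11.61 to 11.75, 12.24 to 12.52 and 11.70 to 12.12 in the same order of groups. Of 7 endothelial markers, 4 were lower after bleomycin with LNA-control and 7 were higher with the inhibitor in bleomycin lungs, and of 8 heart muscle markers 4 were lower and 8 were higher. In the same pair of comparisons limma called none of 7 thymocyte markers (2 and 3 at an unadjusted p under 0.05), none of 8 squamous markers (0 and 1), and of 7 brown fat markers none and 1 higher (0 and 4). Of the macrophage, transitional, endothelial and heart muscle markers, the dimmest was Cldn4, an epithelial gene, at 5.88 at its lowest. Several thymocyte, squamous and brown fat markers were near the bottom of the scale in whole groups, such as Rag2 at 5.17 to 5.35 with PBS and LNA-control and Elovl3 at 5.09 to 5.39 after bleomycin with LNA-control. The part of these cell types in the levels of the p53 target genes was not tested.

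Bleomycin against PBS in lungs given LNA-miR-199a-5p repeats the first comparison under the inhibitor. Here 1 of the 9 genes passed the test, where 7.31% of all genes were higher, 6.04% lower and 13.4% changed either way. That gene was Phlda3, which rose by 0.31 ± 0.10 (limma adjusted p 0.0418). It lost this call in 8 of the 16 fits that left out 1 array, among them replicates 4 and 5 of the bleomycin group and each of the 3 PBS arrays with the inhibitor, and in 10 other settings. These included the fits without the thymocyte-rich arrays (adjusted p 0.0585) and without replicate 3 of both PBS groups (0.120). Gdf15 differed by 0.05 ± 0.12 (adjusted p 0.828, 95% confidence interval -0.21 to 0.31) and Psrc1 by -0.02 ± 0.13 (interval -0.29 to 0.25). Neither interval reaches the size of the rise with LNA-control. Cdkn1a differed by 0.58 ± 0.22 (adjusted p 0.0836). Its arrays did not overlap, as for Phlda3 and 10.5% of all genes in this direction. It was called when its probes were combined by their median (adjusted p 0.0230) or mean (0.0242), without replicate 1 of bleomycin with LNA-control (0.0319) and without the thymocyte-rich arrays (0.0327). Trp53inp1 differed by -0.29 ± 0.10 (adjusted p 0.0718), and was called without replicate 1 or 2 of the bleomycin arrays with the inhibitor (0.0452 and 0.0436) and with arrays centred on the median (0.0408). Ccng1 differed by -0.18 ± 0.10 (adjusted p 0.240).

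The inhibitor against LNA-control in PBS lungs asks what the oligonucleotide did without injury. Gdf15 rose by 0.89 ± 0.14, or 1.85-fold (limma adjusted p 0.0289), and was 1 of only 10 genes called in this comparison, 0.0479% of all genes, of which 7 were higher (0.0336%) and 3 lower (0.0144%). The other 8 did not pass. Psrc1 differed by 0.48 ± 0.14 (adjusted p 0.389), Cdkn1a by 0.54 ± 0.24 (adjusted p 0.647), Ccng1 by 0.27 ± 0.11 (adjusted p 0.602) and Phlda3 by 0.24 ± 0.11 (adjusted p 0.641). On the tested probes the differences were positive for 8 of the 9, Mdm2 being the exception at -0.08 ± 0.13. That of Trp53inp1 was only 0.02 ± 0.11. A dimmer probe of the same transcript differed by -0.43 ± 0.14 (limma adjusted p 0.433 over all named probes). The arrays with the inhibitor lay above the controls without overlap for 6 of the 9, against 10.2% of all genes. The call of Gdf15 rests on few arrays. Its adjusted p ran from 0.00555 to 0.228 when 1 array was left out and lost the threshold without any one of the 3 control arrays, without replicate 1 or 2 of the inhibitor group and without replicate 2 of the bleomycin group with the inhibitor. It was also lost without replicate 3 of both PBS groups, the arrays low in brown fat transcripts (0.87, adjusted p 0.0823), and when only the PBS arrays were fitted (adjusted p 0.0882). Gdf15 was between 8.74 and 8.95 with the inhibitor and at most 8.03 without it in PBS lungs.

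The interaction, the bleomycin effect with LNA-miR-199a-5p minus the bleomycin effect with LNA-control, tests whether the response to injury differed with the inhibitor. It was negative past the threshold for 8 of the 9 genes, where 3.94% of all genes were lower, 3.07% higher and 7.01% changed either way. Gdf15 was at -2.81 ± 0.17 (limma adjusted p 1.42e-07), Psrc1 at -2.56 ± 0.18 (5.90e-07), Ccng1 at -1.55 ± 0.14 (9.78e-06) and Zmat3 at -1.0 ± 0.12 (0.000169). Phlda3 was at -0.94 ± 0.14, Trp53inp1 at -0.81 ± 0.14 and Cdkn1a at -1.32 ± 0.30, with adjusted p of 0.000876, 0.00421 and 0.0184. Eda2r was at -0.43 ± 0.12 (adjusted p 0.0382) and lost its call in 11 of the 16 fits that left out 1 array. A second Eda2r probe, for another RefSeq transcript, was not called, at -0.31 ± 0.10 (limma adjusted p 0.0648 over all named probes). That probe was called after bleomycin with LNA-control (0.29 ± 0.07, adjusted p 0.00621) and for the inhibitor in bleomycin lungs (-0.28 ± 0.06, adjusted p 0.00298). Mdm2 was at -0.22 ± 0.16 (adjusted p 0.444) and passed in 1 of the 16 fits that left out 1 array, the one without replicate 1 of PBS with the inhibitor (adjusted p 0.0404), on which it read 12.42. This contrast and the preceding ones share arrays, so their directions are not independent. Without the thymocyte-rich arrays 7 of 9 were called, and Eda2r was not (-0.33, adjusted p 0.108). The share of all genes called either way also fell, to 4.38% without the first of these arrays alone and 4.4% without the second alone. Without replicate 3 of both PBS groups, Cdkn1a (-1.28, adjusted p 0.0819) and Eda2r (-0.46, adjusted p 0.105) lost their calls.

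**Figure D3:**
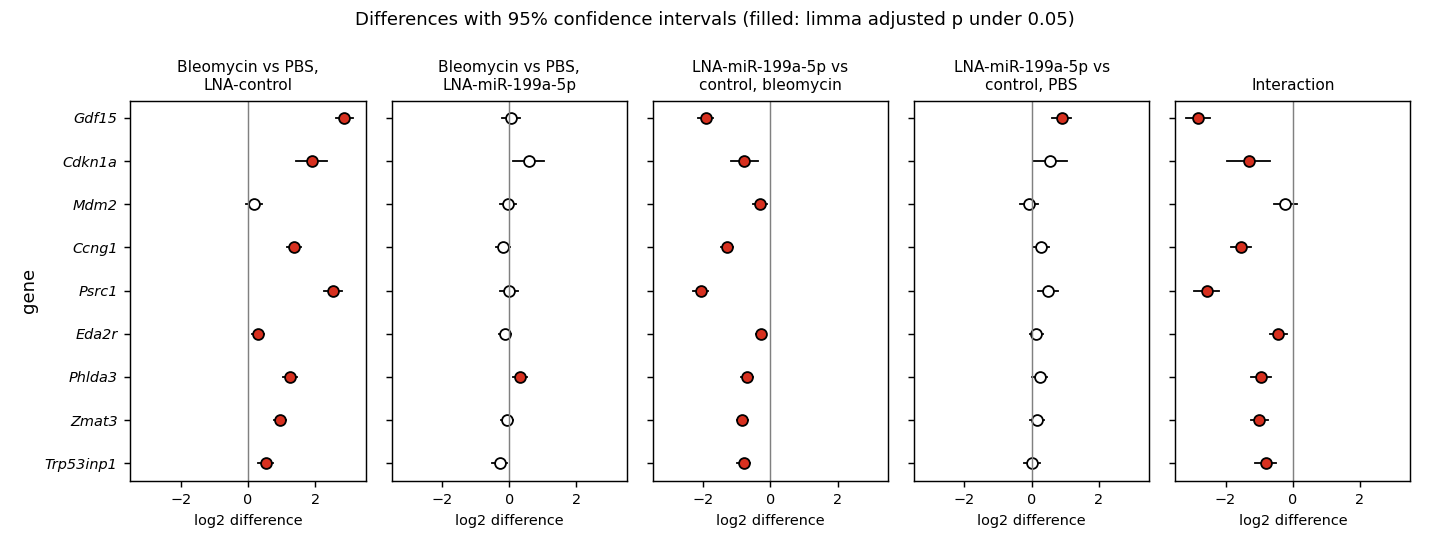
Difference on the log2 scale (horizontal axis) of the 9 genes (vertical axis) in the 5 comparisons, with 95% confidence intervals from limma, filled where the adjusted p was under 0.05. Gdf15 stands at 2.86 after bleomycin with LNA-control, at 0.05 after bleomycin with LNA-miR-199a-5p and at -1.92 for the inhibitor in bleomycin lungs.

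The injured lungs with the inhibitor were also set against the PBS lungs with LNA-control, a contrast added after the values were seen. Here 4 of the 9 genes were higher and none lower, where 8.39% of all genes were higher, 6.16% lower and 14.6% changed either way. The arrays of the same 4 lay above the controls without overlap, against 15.2% of all genes. Cdkn1a was higher by 1.12 ± 0.22 (limma adjusted p 0.00477), Gdf15 by 0.94 ± 0.12 (0.000537), Phlda3 by 0.55 ± 0.10 (0.00248) and Psrc1 by 0.46 ± 0.13 (0.0237). Psrc1 lost its call without replicate 2 or 3 of the PBS controls, without replicate 3 of both PBS groups (0.39, adjusted p 0.103) and with the replicate block (0.43, adjusted p 0.0805). It also lost it with arrays centred on the median (adjusted p 0.0531) and with quantile normalization repeated (0.0683). Ccng1 (0.09 ± 0.10), Zmat3 (0.11 ± 0.08), Eda2r (0.01 ± 0.08) and Mdm2 (-0.12 ± 0.11) did not pass. Trp53inp1 differed by -0.27 ± 0.10 (adjusted p 0.0856), but was lower by the mean of its probes (-0.48, adjusted p 0.00434) and with arrays centred on the median (-0.35, adjusted p 0.0325). A second, dimmer probe of the same transcript read 0.69 ± 0.13 lower (adjusted p 0.00301 over all named probes). That second probe read 7.40, 7.42 and 7.72 with PBS and LNA-control and 6.98, 6.70, 6.55, 7.07 and 6.84 after bleomycin with the inhibitor, so both Trp53inp1 probes lay below the PBS controls in every one of those 5 lungs, where 10.6% of all genes were lower without overlap.

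Other genes known to be induced by p53 had smaller medians. The 9 genes and the lists were chosen with earlier results of these data known, so the difference between medians is descriptive only. Of 38 measured, 10 were higher and 2 lower after bleomycin with LNA-control, with a median of 0.12 against 1.26 for the 9 genes above and 0.00 for all genes. Of all genes, 9.6% were higher and 7.9% lower. In bleomycin lungs 13 were lower and 4 higher with the inhibitor (median -0.07, against -0.80 for the 9 genes). There 11.4% of all genes were lower and 13.4% higher. In lungs given LNA-miR-199a-5p, bleomycin left 2 higher and 3 lower, where 7.31% of all genes were higher and 6.04% lower. None was called by limma for the inhibitor in PBS lungs (0.0479% of all genes were), where 4 had an unadjusted p under 0.05. A negative interaction was called for 8, against 3.94% of all genes. Aen, an exonuclease of apoptosis, rose by 0.88 ± 0.08 and fell by 0.64 ± 0.07 with the inhibitor. Dglucy, D-glutamate cyclase, rose by 1.19 ± 0.11 and fell by 1.17 ± 0.10, and the death receptor Tnfrsf10b rose by 1.08 ± 0.14 and fell by 0.80 ± 0.12, all with limma adjusted p of at most 0.000218. Kitl, the ligand of the receptor Kit, went the other way and fell by 0.91 ± 0.12 after bleomycin with LNA-control (adjusted p 5.66e-05). With brown fat and heart levels as covariates, 1 of the 38 was called for the inhibitor in bleomycin lungs.

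Regulators of p53 and the kinases that sense DNA damage moved in both directions. Of 15 measured, 3 were higher and 2 lower after bleomycin with LNA-control, where 17.5% of all genes changed either way. Their median was -0.02, and Trp53 itself was not analysed here. Chek2, a checkpoint kinase, rose by 0.56 ± 0.13, the histone gene H2ax by 0.75 ± 0.20 and Cdkn2a, which encodes p16 and ARF, by 0.73 ± 0.18, with limma adjusted p between 0.00759 and 0.0151. Hipk2, a kinase that acts on p53, fell by 0.40 ± 0.11 (adjusted p 0.0177). In bleomycin lungs H2ax was 0.73 ± 0.17 lower with the inhibitor and Brca1, a repair gene, 0.23 ± 0.07 lower (adjusted p 0.00631 and 0.0199). No gene of this list had a called interaction in limma, against 7.01% of all genes, and 4 had an unadjusted p under 0.05 for it.

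After bleomycin with LNA-control 9.6% of all genes rose and 7.9% fell. Of 14 genes of the BCL2 family and caspases, which carry out or restrain cell death, 4 rose in this comparison and none fell. These were the pore-forming Bak1 (0.55 ± 0.10) and Bok (0.65 ± 0.13), Bid (0.35 ± 0.09), which activates them, and the protective Bcl2l1 (0.34 ± 0.08), with limma adjusted p of at most 0.0170. In bleomycin lungs Bok fell by 0.34 ± 0.11 with the inhibitor, while Bik and Bcl2 rose by 0.34 ± 0.09 and 0.33 ± 0.10, with adjusted p of 0.0386, 0.0109 and 0.0195. Of 12 inhibitors of cyclin-dependent kinases and senescence genes, 3 rose and 2 fell after bleomycin with LNA-control. The lysosomal galactosidase gene Glb1 rose by 0.52 ± 0.09 and the cytokine gene Il6 by 1.11 ± 0.20, and Cdkn1b, which encodes the kinase inhibitor p27, fell by 0.50 ± 0.09 (adjusted p of at most 0.00110). With the inhibitor in bleomycin lungs 6 of these 12 were lower and 1 higher, where 11.4% of all genes were lower and 13.4% higher. Among the 12, Hmga2, a chromatin protein gene, was lower by 0.58 ± 0.10, Il6 lower by 0.87 ± 0.18 and Cdkn1b higher by 0.34 ± 0.08 (limma adjusted p 0.000465, 0.00211 and 0.00410).

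The integrated stress response, the other known inducer of Gdf15, was covered by 16 genes. After bleomycin with LNA-control 4 were higher and none lower (median 0.05), where 9.6% of all genes were higher and 7.9% lower. The transcription factor gene Atf3 rose by 1.19 ± 0.13 and Psat1, of serine synthesis, by 1.10 ± 0.18, the cystine carrier gene Slc7a11 by 0.57 ± 0.09 and Trib3 by 0.32 ± 0.08, with limma adjusted p of at most 0.0123. With the inhibitor in bleomycin lungs 4 of the 16 were lower and 4 higher, where 11.4% of all genes were lower and 13.4% higher. Atf3 fell by 0.83 ± 0.12 and Chac1, of glutathione breakdown, rose by 0.64 ± 0.11 (adjusted p 0.000140 and 0.000489). None of the 16 was called by limma for the inhibitor in PBS lungs, where Gdf15 was, and 2 had an unadjusted p under 0.05. Only 0.0479% of all genes were called there. Of 6 receptors, ligands and adaptors of GDF15 and ectodysplasin, none was called by limma in these 3 comparisons, with 1, 3 and 1 at an unadjusted p under 0.05, and the GDF15 receptor gene Gfral had group means of 5.04 to 5.20, near the bottom of the scale. For the interaction limma called 1 of these 6 higher and none lower. Of the 16 stress response genes it called 3 lower and 1 higher, where 3.94% of all genes were lower and 3.07% higher.

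Genes of DNA replication and mitosis that p53 is known to repress through p21 rose in the same lungs as Cdkn1a. Of 19 measured, 17 were higher after bleomycin with LNA-control (median 1.61) and 16 were lower with the inhibitor in bleomycin lungs (median -1.17). Of all genes, 9.6% were higher in the first comparison and 11.4% lower in the second. Prc1, of the central spindle, rose by 1.95 ± 0.30 and fell by 1.61 ± 0.26, and the thymidine kinase gene Tk1 rose by 1.45 ± 0.20 and fell by 1.03 ± 0.17. The mitotic kinase gene Plk1 rose by 1.78 ± 0.24 and Cdc20, an activator of the anaphase ligase, by 1.87 ± 0.27, all of these with limma adjusted p of at most 0.000481. The mean of the 19 ran from 8.67 to 10.12 after bleomycin with LNA-control and overlapped with the 8.39 to 8.86 of the inhibitor group. Without the thymocyte-rich arrays 14 were higher and 9 were lower. The share of all genes called either way fell too. Without the first of these arrays alone it was 14.2% for bleomycin and 19.1% for the inhibitor. Without the second alone it was 14.9% and 18.1%. After bleomycin with LNA-miR-199a-5p none of the 19 was called by limma, against 13.4% of all genes, and none had an unadjusted p under 0.05. The interaction was called for 8, against 7.01% of all genes. That count ran from 0 to 15 when 1 array was left out and was 1 without the thymocyte-rich arrays. The p53 target genes were also highest on one of those arrays, replicate 4, for 7 of the 9, and replicate 1 was highest for the other 2 (Ccng1 and Eda2r). Replicate 1 was the lowest of its group for 2 genes, Cdkn1a and Mdm2.

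**Figure D4:**
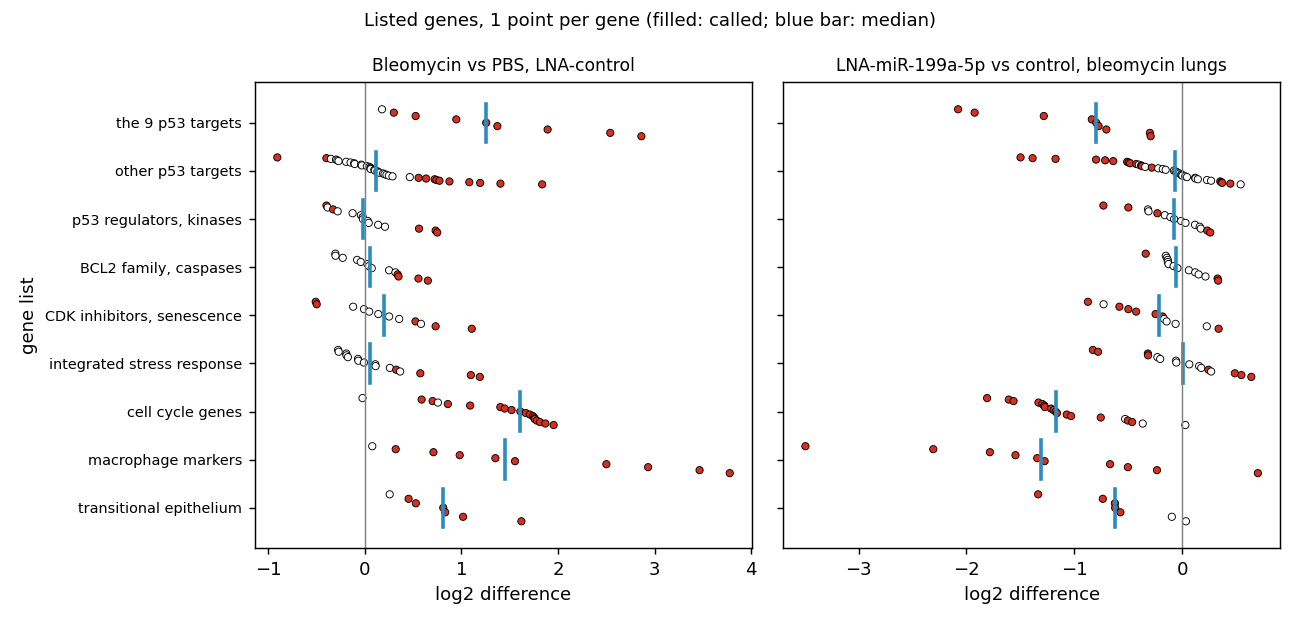
Difference on the log2 scale (horizontal axis) of single genes, 1 point per gene, by list (vertical axis), for bleomycin against PBS with LNA-control (left) and for LNA-miR-199a-5p against LNA-control in bleomycin lungs (right); filled points had an adjusted p under 0.05 and blue bars are medians. The 9 p53 target genes have medians of 1.26 and -0.80, the other p53 targets 0.12 and -0.07, and the cell cycle genes 1.61 and -1.17. The genes and lists were chosen with earlier results of these data known.

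The genes with profiles most like Gdf15 and Cdkn1a were found among the 10430 genes above the median level, each centred on its own mean, by the root mean square difference over the 16 arrays. For Gdf15 these were Ms4a7 (0.24), Gpnmb (0.28), Clec4n (0.30), Zranb3 (0.34) and Ctsk (0.36). Ms4a7 and Gpnmb were also on the macrophage marker list. Psrc1 and Eda2r, at percentiles 39.1 and 15.3 of all genes, were below the median level and so were not ranked. The ranking therefore cannot show whether either was closer. Ms4a7 had group means of 9.39 and 9.97 in PBS lungs with LNA-control and with the inhibitor, and of 11.89 and 10.34 in bleomycin lungs in the same order, against 7.98, 8.87, 10.85 and 8.92 for Gdf15. For Cdkn1a they were Adamtsl2 (0.34), Phlda3 (0.35), Ccl6 (0.36), Apoe (0.36) and Mmp2 (0.36), so 1 of the 5 was itself on the list of p53 targets. This likeness describes 16 arrays that share 4 groups.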

How the data were processed

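RNA was isolated with TRIzol, and 0.2 ug of it was Cy3-labelled for each array, per the labels' protocols. The deposited table holds log2 intensities that the authors prepared with limma (version not given), per the submitters' processing notes. Once sorted, the arrays differed nowhere by more than 0.0974, so they already shared 1 distribution. Background correction and scanner settings are not given in the sources used here. Of 62976 spots, the platform table names a gene for 31465 and none for 31511. Symbols were updated through RefSeq accessions for 29036 probes, which left 20863 genes, all tested. The number of arrays, not a count depth, limits the precision.

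All 16 arrays entered 1 model with a mean for each of the 4 groups in limma 3.58.1 (R 4.3.3, lmFit and eBayes). Tests were two-sided, and the code was checked on simulated data. The members and lists were chosen with earlier results of these data known. Besides the members, the 5 genes most like Gdf15 and Cdkn1a each and markers beside a result, each list gives at most 4 names by their p for injury under LNA-control and at most 2 by their p for the inhibitor after injury. The alternatives were leaving out each array, a replicate block, fitting only the groups compared, array weights, trend and robust eBayes, a level filter, median centring, repeated quantile normalization, other probe rules, covariates for RNA integrity and neighbouring tissues, and leaving out arrays rich in thymocyte or low in brown fat transcripts. Same-numbered arrays of the PBS groups deviated together (correlations 0.41, 0.11 and 0.50). Over all 20 same-numbered pairs the correlations ran from -0.37 to 0.50, 5 of them over 0.1. Arrays with different numbers were not compared in this way, and the labels do not say what a number marks. Whether the numbers pair the arrays therefore cannot be decided.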

Additional observations from a re-analysis of the deposited data

Results flagged for a closer look

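The response to bleomycin differed between the LNA arms by the interaction in limma for 8 of the 9 genes. All 8 were negative, where 3.94% of all genes were lower and 7.01% changed either way. The genes were chosen with earlier results of these data known, so this count is descriptive only. The interaction was -2.81 for Gdf15, -2.56 for Psrc1, -1.55 for Ccng1, -1.32 for Cdkn1a, -1.0 for Zmat3, -0.94 for Phlda3, -0.81 for Trp53inp1 and -0.43 for Eda2r, with limma adjusted p from 1.42e-07 for Gdf15 to 0.0382 for Eda2r. With squamous, brown fat and heart levels as covariates 3 of these calls were kept, those of Gdf15, Psrc1 and Ccng1. No array of the bleomycin groups stood apart from its group by Dixon's test in the 18 groups of values examined, where chance flags about 1 in 20.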

How the results depend on the processing

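Over 30 alternatives (16 that left out 1 array and 14 others), 1503 of 1599 values of single p53 target genes kept their direction and side of the threshold, 84 lost a call, 12 gained one and none reversed. When 1 array was left out, the count of the 9 genes called ran from 7 to 8 for bleomycin with LNA-control, from 8 to 9 for the inhibitor in bleomycin lungs, from 7 to 9 for the interaction, from 0 to 2 for bleomycin in lungs given the inhibitor and from 0 to 1 for the inhibitor in PBS lungs. In the inhibitor lungs the count for bleomycin was 0 with the replicate block, only the groups compared, array weights, repeated quantile normalization, the RNA integrity covariate, either set of tissue covariates and without the PBS arrays low in brown fat, and 2 with the mean or the median of all probes. For the inhibitor in PBS lungs it was 0 with only the groups compared, with squamous, brown fat and heart covariates and without the PBS arrays low in brown fat, and 2 with array weights. Brown fat and heart covariates gave 5 for the inhibitor in bleomycin lungs, 5 for the interaction and 2 for the injured inhibitor lungs against PBS with LNA-control; with squamous genes added the first 2 of these counts were 5 and 3. The cause was not tested. Fewer genes of the whole array were called with these covariates, 1.05% and 0.815% for the inhibitor in bleomycin lungs. That share also moved when 1 array was left out. For bleomycin in inhibitor lungs it was 8.25% without replicate 5 of the bleomycin arrays and 16.9% without replicate 1. For the interaction it was 4.05% without replicate 1 of the PBS controls and 10.6% without replicate 3 of bleomycin with LNA-control. A changed count, here or below, is therefore not a result about the listed genes alone.

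Of the 38 other p53 targets, the count called ran, leaving out 1 array, from 2 to 8 for bleomycin in lungs given the inhibitor and from 3 to 6 for these lungs against PBS with LNA-control, against 5 in both. In the first it was 2 with the replicate block, 1 with only the groups compared, 3 with the RNA integrity covariate, 0 with squamous, brown fat and heart covariates and 1 without the PBS arrays low in brown fat. In the second it was 3 with the replicate block, 8 with array weights, 3 with the RNA integrity covariate and 1 with either set of tissue covariates. For the inhibitor in bleomycin lungs it was 11 without the thymocyte-rich arrays and 1 with either set of tissue covariates, against 17. For the inhibitor in PBS lungs it was 2 with array weights, against 0, and at an unadjusted p under 0.05 it was 4. For the interaction it was 16 with array weights, 3 with brown fat and heart covariates, 0 with squamous genes added and 5 without the PBS arrays low in brown fat, against 8. The replicate block changed no other call of a count by over 1.5 times; with it, Gdf15 in PBS lungs stayed at 0.89 (adjusted p 0.0452) while calls were lost by Eda2r after bleomycin with LNA-control (adjusted p 0.0909) and in the interaction (0.0892), by Phlda3 after bleomycin in the inhibitor lungs (0.145) and by Psrc1 in these lungs against PBS with LNA-control (0.0805). The median of all probes, the arrays left out for low brown fat transcripts and the contrast of the injured inhibitor lungs with the PBS controls were chosen after seeing the data.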
